A study of Mus musculus with 6 samples.

Results

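The miRNAs described here are 8 mature miRNAs that serve as markers of cells other than mammary epithelium, measured in sorted mammary cells. The endothelial ones are mmu-miR-126-3p and mmu-miR-126-5p, and the 6 of leukocytes are mmu-miR-142-3p, mmu-miR-142-5p, mmu-miR-150-5p, mmu-miR-150-3p, mmu-miR-155-5p and mmu-miR-223-3p (the mouse prefix is left off below). The members were taken by name from the 1247 mouse miRNAs on a single-colour array, so 8 of 1247 are covered, from 5 hairpins. All 8 were among the 370 miRNAs tested, a set that needed detection on every array of P4 or of P5. The cells came from mammary glands of virgin wild-type mice of the strain FVB/N-J, whose age the labels do not give. P4 holds lineage-negative, CD24-positive cells with high CD29 (Lin-CD24+CD29hi), a gate enriched for mammary stem cells. P5 holds lineage-negative, CD24-positive cells with low CD29 (Lin-CD24+CD29lo), enriched for luminal cells or their progenitors. Each group had 3 arrays. Whether the replicates are separate animals or separate sorts is not stated in the labels. The p-values below therefore measure only how these arrays spread, and that spread may be technical.

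A miRNA guides the Argonaute protein to messenger RNAs that pair with its seed, the bases near its 5′ end, and lowers their output. Each hairpin can yield a mature strand from each arm, named 5p and 3p, and often 1 strand is kept far more than the other. Several miRNAs are made almost wholly by 1 lineage and are used to follow that lineage in mixed tissue. miR-126 lies within Egfl7, a gene of endothelial cells, and acts on signalling by vascular endothelial growth factor. miR-142 is made throughout the blood lineages, miR-150 mainly in mature lymphocytes, where it targets Myb, miR-155 in activated lymphocytes and macrophages, and miR-223 in neutrophils and monocytes. As background, lineage depletion in mammary sorts commonly removes blood and endothelial cells with antibodies. The labels used here give the gate only as lineage-negative.

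The mature sequences below are shown because the seed, in capitals (bases 2 to 8 from the 5′ end), is what sets each miRNA's targets, and because the 2 arms of miR-142 have unrelated seeds. They are from RefSeq (GRCm38.p6), matched by name for 6 of the 8 members, with miR-126 and miR-142 listed there as miR-126a and miR-142a.
miR-126-3p: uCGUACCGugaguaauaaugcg
miR-142-3p: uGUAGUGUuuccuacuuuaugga
miR-142-5p: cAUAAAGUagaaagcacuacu
miR-150-3p: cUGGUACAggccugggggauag
miR-155-5p: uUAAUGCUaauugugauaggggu
miR-223-3p: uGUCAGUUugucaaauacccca
miR-126-5p and miR-150-5p were not matched. The 6 seeds were all different, and 0 other mature miRNAs of the 1738 in that table shared bases 2 to 8 with any of them. miR-126-3p is at chr2:26591402-26591423 on the plus strand, inside the protein-coding gene Egfl7. The 5p and 3p arms of miR-142 are at chr11:87756867-87756887 and chr11:87756903-87756925, both on the plus strand, and overlap no annotated protein-coding gene. miR-150-3p is at chr7:45121798-45121819 on the plus strand, also outside protein-coding genes. miR-155-5p is at chr16:84714143-84714165 on the plus strand, within the non-coding RNA gene Mir155hg. miR-223-3p is at chrX:96242884-96242905 on the plus strand, within the non-coding RNA gene F630028O10Rik.

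All 6 arrays lay on 1 slide and were read in 1 scan, with the P4 arrays and P5 replicate 1 in its first row and P5 replicates 2 and 3 in its second. Signals are given as log2 of the background-subtracted intensity over each array's 75th percentile among miRNAs detected on every array. That scaling signal was 186 to 382 intensity units on P4 arrays and 315 to 526 on P5 arrays, lowest on P4 replicate 1. Values were floored at -5.49, and each difference is P4 minus P5 on this log2 scale. Levels of different miRNAs rest on different probes and are not compared with each other. Epithelial miRNAs were present throughout: miR-200a-3p, miR-200b-3p, miR-200c-3p, miR-141-3p, miR-429-3p and miR-205-5p were detected on all 3 arrays of both groups. The miRNAs known as markers of endothelium and leukocytes were detected too, 7 of the 8 on all 6 arrays, as were 293 of all 1247. Which of the sorted cells they came from was not tested. In such bulk samples, fewer cells of a type and less of a miRNA per cell cannot be told apart.

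Of the 8 miRNAs 3 were higher in P4 and 0 lower at an adjusted p under 0.05 in limma: both arms of miR-126 and miR-150-5p. Among all tested miRNAs 13.8% were higher, 14.1% lower and 27.8% called in either direction. The 8 are not 8 independent items, since arms of 1 hairpin share a precursor. The P4 arrays lay above all P5 arrays for 4 of the 8, the 3 above and miR-223-3p, against 20.5% of all tested miRNAs (42.2% did not overlap in either direction). The median difference of the 8 was 1.02 on the log2 scale, beside 0.0013 over all 370. Leaving out P4 replicate 3 moved that median to 0.67, and leaving out P4 replicate 1 to 1.60.

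**Figure D1:**
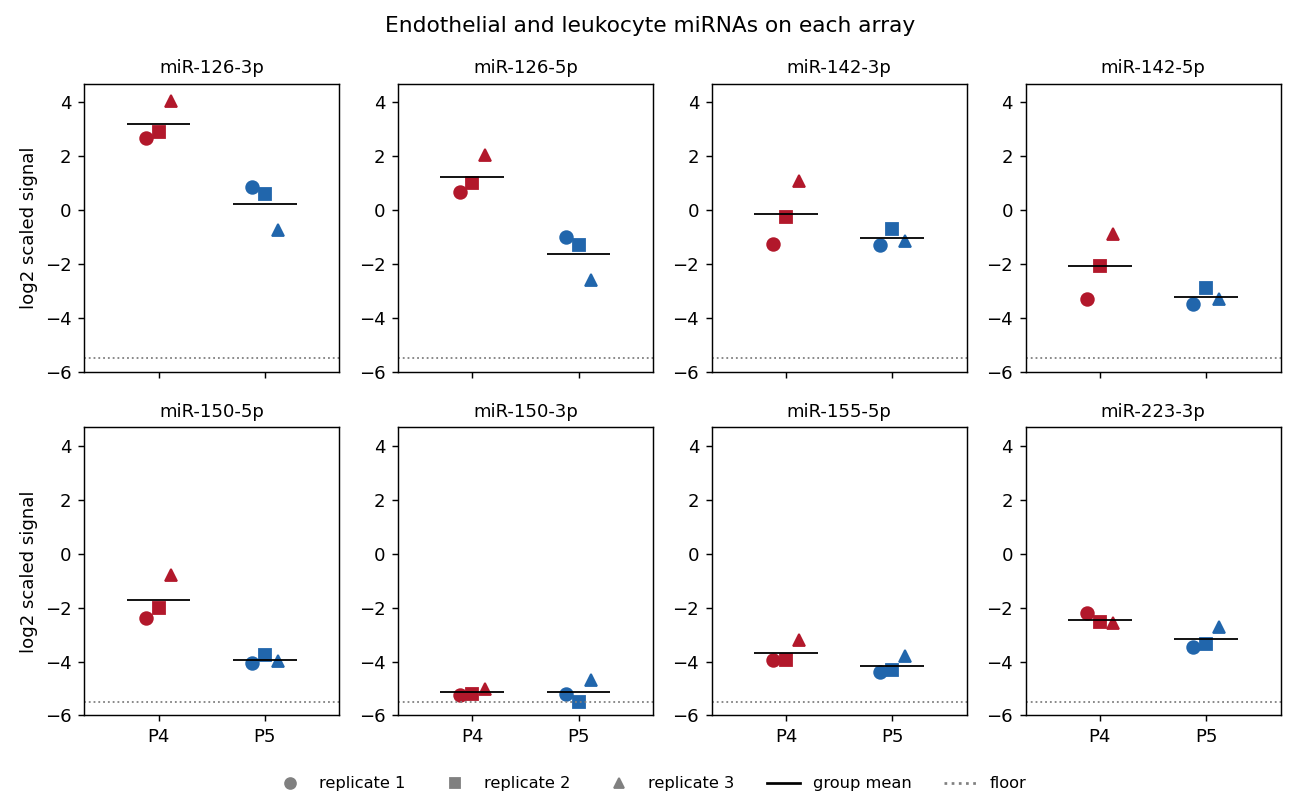
Log2 scaled signal (y axis) of the 8 miRNAs on each P4 and P5 array, with marker shapes for replicates, black lines for group means and a dotted line for the floor at -5.49. The P4 arrays lie above all P5 arrays for both arms of miR-126, miR-150-5p and, narrowly, miR-223-3p, and P4 replicate 1 lies among the P5 arrays for both arms of miR-142.

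miR-126-3p, the arm known to repress Spred1 and Pik3r2 in endothelial cells, was far above the floor on every array. Its log2 scaled signal was 2.70, 2.89 and 4.04 on P4 replicates 1, 2 and 3, against 0.87, 0.60 and -0.73 on the P5 replicates. The lowest P4 array was thus 3.54-fold above the highest P5 array, and the extremes were P4 replicate 3 and P5 replicate 3. The means were 3.21 ± 0.73 in P4 and 0.25 ± 0.86 in P5 (SD, n = 3 each), a log2 difference of 2.96 ± 0.50 (SE), or 7.79-fold (limma adjusted p = 0.00409). In intensity units before scaling it stood at 1205, 2828 and 4501 in P4 and at 962, 693 and 189.8 in P5. Here too every P4 array was above every P5 array, but P4 replicate 1 and P5 replicate 1 came close.

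miR-126-5p, the other strand of the same hairpin, had log2 scaled signals of 0.69, 1.00 and 2.04 in P4 and -1.01, -1.30 and -2.61 in P5. It repeated the order of the arrays seen for the 3p arm, and its groups did not overlap. The difference was 2.88 ± 0.50 (SE, n = 3 each), or 7.36-fold (limma adjusted p = 0.00432). The 2 arms kept nearly the same distance on all arrays: 3p minus 5p was 2.01, 1.89 and 2.00 in P4 and 1.88, 1.90 and 1.88 in P5. The 4 probes of both arms gave differences of 2.98, 2.95, 2.86 and 2.92. Within a probe the spots scattered little: for miR-126-3p the coefficient of variation over 17 to 20 spots was 1.58% to 8.45% on any array. The spread between arrays of a group was therefore much wider than that between spots. When slide row was added as a block, the 2 arms were at 2.34 and 2.25 and did not pass (limma adjusted p = 0.101 and 0.104). In that fit the difference comes from the first row, where the P4 arrays are set against P5 replicate 1 alone. Nor did they pass when all 1247 miRNAs were tested (adjusted p = 0.146 and 0.150).

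miR-142-3p, which blood cells of all lineages make at high levels, showed a different picture. Its log2 scaled signal was -1.24, -0.24 and 1.08 on P4 replicates 1, 2 and 3, against -1.28, -0.70 and -1.15 on the P5 replicates. P4 replicate 1 lay within the P5 range, while replicates 2 and 3 lay above it, so the groups overlapped. The P4 arrays spanned 2.32 and the P5 arrays 0.58 on the log2 scale. The difference of 0.91 ± 0.54 (SE, n = 3 each) did not pass (limma adjusted p = 0.234), with a 95% interval from -0.36 to 2.17.

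miR-142-5p followed its partner arm, with log2 scaled signals of -3.31, -2.06 and -0.90 in P4 and -3.48, -2.89 and -3.30 in P5. P4 replicate 1 was again inside the P5 range. The difference was 1.13 ± 0.55 (SE, n = 3 each; limma adjusted p = 0.164), and its 95% interval ran from -0.17 to 2.43. The value of miR-142 depended on single arrays: without P4 replicate 1 the arms were at 1.46 and 1.74 and passed (adjusted p = 0.0424 and 0.0156), and without P4 replicate 3 they were at 0.30 and 0.53 (adjusted p = 0.517 and 0.320). They also passed with normexp background correction (0.82 and 0.88, adjusted p = 0.00207 and 0.000871). In that fit limma estimated 1 variance common to all miRNAs, so the spread of miR-142 itself had no weight. miR-142-3p still overlapped there, with -0.82, -0.21 and 0.94 in P4 against -1.06, -0.60 and -0.89 in P5. miR-142-5p did not, with -1.61, -1.52 and -0.68 in P4 against -2.40, -2.06 and -1.97 in P5. Normexp added an offset of 50 before scaling, and P4 replicate 1 had the lowest scaling signal without normexp. With normexp the weak miR-150-3p (-1.88) and miR-155-5p (-1.71) were highest on that array. The part of the offset in the separation of miR-142-5p was not tested.

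miR-150-5p, the guide strand known from B and T lymphocytes, was higher on every P4 array. Its log2 scaled signal was -2.38, -2.001 and -0.79 in P4, against -4.05, -3.75 and -3.98 in P5. The P4 replicates ranked as they did for miR-142-3p, but after scaling the lowest of them was 2.60-fold above the highest P5 array. The means were -1.72 ± 0.83 in P4 and -3.93 ± 0.15 in P5 (SD, n = 3 each), a difference of 2.20 ± 0.39 (SE), or 4.61-fold (limma adjusted p = 0.00449). Its 2 probes gave 2.29 and 2.15. Before scaling the intensities were 35.8, 95.5 and 157.6 in P4 and 31.8, 33.9 and 19.9 in P5. P4 replicate 1, the array with the lowest scaling signal, was there only just above the highest P5 array. Without scaling the difference was 1.55 (limma adjusted p = 0.0410). The P5 signal was weak, at 1.44 to 1.73 above the floor on the log2 scale. With normexp, which also uses median spot signals and an offset of 50, the difference was 1.27. A block for slide row ended the call (2.32, adjusted p = 0.0660), as did testing all 1247 miRNAs (adjusted p = 0.147).

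miR-150-3p, the strand of that hairpin that is usually discarded, stood at or near the floor. It had log2 scaled signals of -5.23, -5.21 and -5.00 in P4 and -5.21, -5.49 and -4.68 in P5, and P4 replicate 1 was flagged as not detected. The groups overlapped and the difference was -0.02 ± 0.23 (SE, n = 3 each; limma adjusted p = 0.962). Of its 4 probes 1 was above the floor on 1 array and another on 2. Its direction and size were not settled: it was 0.45 with normexp (adjusted p = 0.121), -1.49 with Agilent's summed signal (adjusted p = 0.399) and, in the authors' processed values, -1.82 (adjusted p = 0.312).

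miR-155-5p, made from the Mir155hg transcript and known from activated lymphocytes and macrophages, was weak on every array. The log2 scaled signal was -3.95, -3.94 and -3.21 in P4 and -4.40, -4.33 and -3.79 in P5. P4 replicates 1 and 2 lay below P5 replicate 3, so the groups overlapped, and the difference of 0.47 ± 0.27 (SE, n = 3 each) did not pass (limma adjusted p = 0.213). Without scaling between arrays it was -0.18, and the authors' processed values gave -0.15, so its direction is not settled. Those settings moved the median of all tested miRNAs to -0.64 and -0.43. In intensity units before scaling, miR-155-5p stood at 12.0, 24.9 and 29.6 in P4 and at 24.99, 22.7 and 22.7 in P5.

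miR-223-3p, a miRNA of the myeloid lineage that targets Mef2c, behaved unlike the others. The log2 scaled signal was -2.20, -2.54 and -2.57 in P4 and -3.47, -3.34 and -2.72 in P5. The groups did not overlap, yet the lowest P4 array was only 1.11-fold above the highest P5 array, both of them replicate 3. The difference was 0.74 ± 0.23 (SE, n = 3 each; limma adjusted p = 0.0543, 95% interval 0.19 to 1.29), just outside the threshold. Before scaling the intensities were 40.4, 65.7 and 45.8 in P4 and 47.3, 45.2 and 47.7 in P5, which overlap, and the difference without scaling was 0.08 (adjusted p = 0.851). It passed under 5 of 22 alternatives, among them without P5 replicate 3 (0.97, adjusted p = 0.0119).

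**Figure D2:**
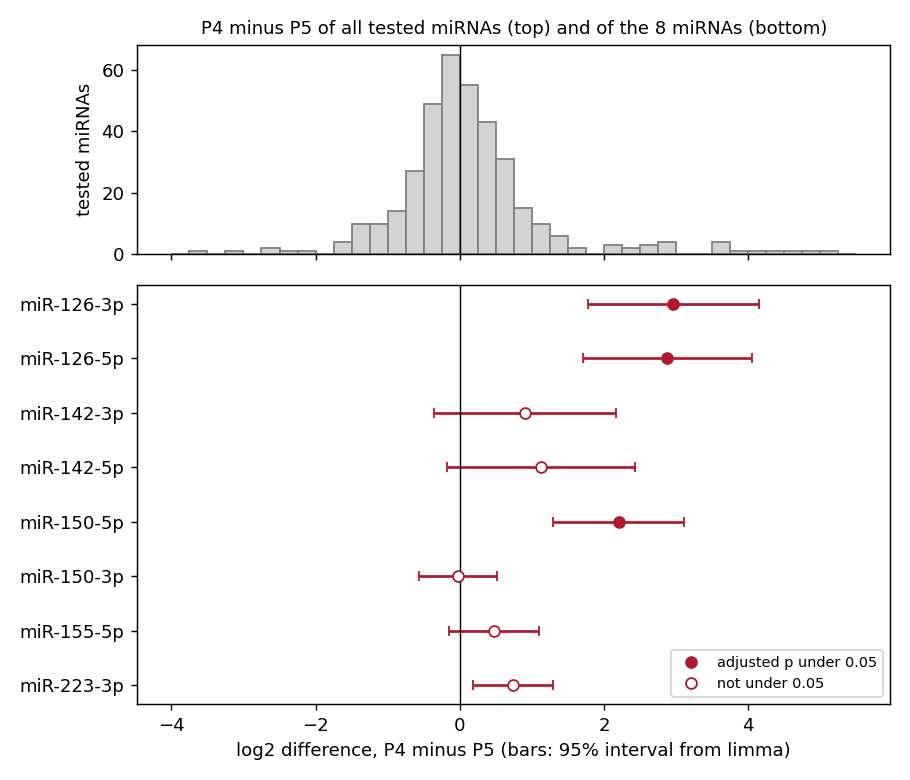
Top, number of tested miRNAs (y axis) by log2 difference, P4 minus P5 (x axis); bottom, the difference of each of the 8 miRNAs with its 95% interval from limma, filled where the adjusted p is under 0.05. Both arms of miR-126 (2.96 and 2.88) and miR-150-5p (2.20) have intervals well above 0, while those of both miR-142 arms, miR-150-3p and miR-155-5p include 0.

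Whether 2 miRNAs differed in how far P4 lay from P5 was asked per array, as the distance between them, in which the scaling signal of an array cancels. The first pair sets 1 endothelial against 1 leukocyte miRNA, which need not stand for their lineages. The second pair is of 2 leukocyte miRNAs. The distance of miR-126-3p from miR-142-3p was 3.94, 3.13 and 2.96 on the P4 arrays and 2.15, 1.30 and 0.42 on the P5 arrays. Every P4 array was above every P5 array, and the difference between groups was 2.05 (2-sided exact permutation p = 0.1, adjusted p = 0.1 over the 2 such comparisons). The distance of miR-150-5p from miR-142-3p was -1.13, -1.76 and -1.87 on the P4 arrays and -2.77, -3.05 and -2.83 on the P5 arrays, a difference of 1.30 with the same exact p of 0.1. Both distances were without overlap between the groups, but 0.1 is the smallest p that 3 against 3 allows, so neither comparison could pass 0.05. With normexp the second difference was 0.45 (exact permutation p = 0.2).

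**Figure D3:**
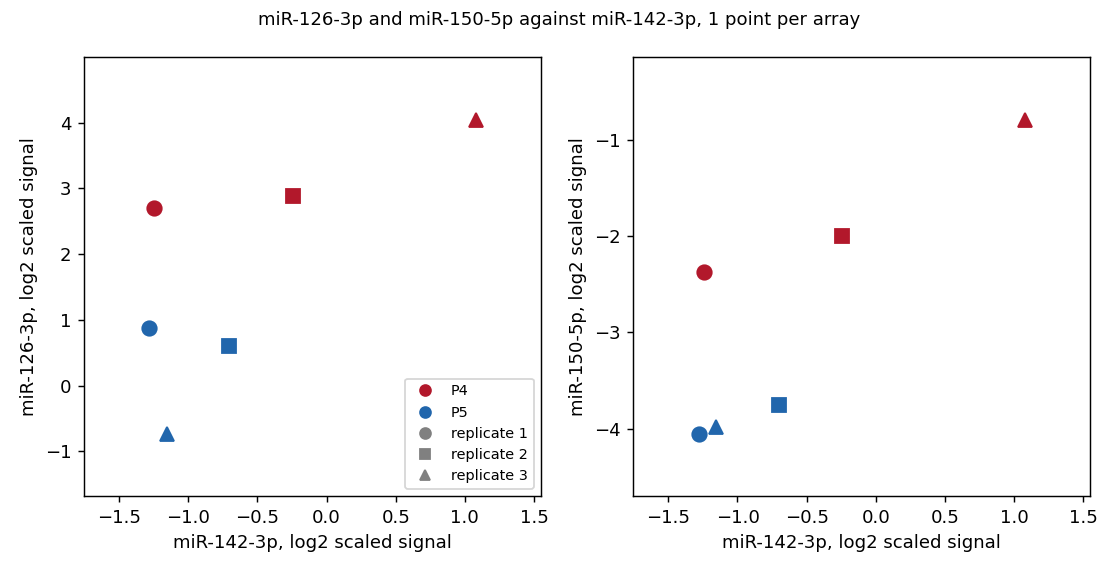
Log2 scaled signal of miR-126-3p (left) and miR-150-5p (right) on the y axis against that of miR-142-3p on the x axis, 1 point per array. P4 replicate 1 matches P5 replicate 1 in miR-142-3p (-1.24 and -1.28) but lies above it in miR-126-3p (2.70 and 0.87) and in miR-150-5p (-2.38 and -4.05).

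Replicates within a group also differed. Of the 8 miRNAs 7 were highest among P4 arrays on replicate 3, where 40.3% of all tested miRNAs were, and the exception was miR-223-3p. The P4 standard deviation of miR-142-5p was 1.21 and that of miR-142-3p 1.17, larger than those of 99.7% and 99.5% of tested miRNAs, whose median was 0.24. For miR-150-5p it was 0.83, larger than in 98.9%, and for miR-126-3p 0.73, larger than in 97.0%. In P5 the arms of miR-126 again spread widely (0.86 and 0.85), while miR-142-3p (0.30) and miR-150-5p (0.15) lay nearer to the P5 median of 0.23. Among P5 arrays miR-126 was lowest on replicate 3, at -0.98 and -0.97 from the P5 mean, whereas miR-155-5p and miR-223-3p were highest on it, at 0.38 and 0.46. Before scaling, miR-155-5p (24.99, 22.7 and 22.7) and miR-223-3p (47.3, 45.2 and 47.7) were nearly flat over the P5 arrays. The P5 scaling signal was lowest on replicate 3. Summed over its 2 arms, the scaled linear signal of miR-126 was 8.09 to 20.6 on P4 arrays and 0.767 to 2.32 on P5 arrays. The sum over the 6 leukocyte miRNAs was 1.02 to 3.53 on P4 arrays and 0.726 to 0.994 on P5 arrays. On every array miR-142-3p gave the largest part of this sum: 0.42 of 1.02 on P4 replicate 1, 2.11 of 3.53 on P4 replicate 3 and 0.61 of 0.994 on P5 replicate 2. These are parts of the summed intensity, not of abundance, since the miRNAs rest on different probes. The scaled leukocyte sums did not overlap, by a narrow margin, and the lowest P4 sum was that of replicate 1. Before scaling they overlapped, with P4 sums of 190.3, 611 and 965 and P5 sums of 382, 455 and 276 intensity units, and P4 replicate 1 lay below every P5 array.

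Over the 6 arrays the log2 scaled signals of miR-126-3p and miR-142-3p were most like those of their partner arms (Pearson r = 0.9997 and 0.993). With the 8 miRNAs themselves left out, those most like miR-126-3p were let-7j (r = 0.98), miR-199a-3p (r = 0.96) and miR-10b-5p (r = 0.92), out of 285 other candidates detected on every array. For miR-142-3p they were miR-711 (r = 0.88), miR-762 (r = 0.81) and miR-16-5p (r = 0.81), and for miR-150-5p they were miR-199a-3p (r = 0.99), miR-762 (r = 0.96) and miR-10b-5p (r = 0.95). These correlations describe 6 points that share the array scaling and the split into groups. With the group means taken out, and again among these candidates, miR-150-5p and miR-142-3p lay closest to miR-199a-3p (r = 0.998 and 0.983), next to miR-669p-3p (0.98) and miR-711 (0.95) for miR-150-5p, and to miR-5103 (0.93) and miR-669p-3p (0.92) for miR-142-3p. Among the same candidates, the deviations of miR-126-3p were most like those of miR-574-5p (0.96), miR-15a-5p (0.93) and miR-1187 (0.92). Between the 8 miRNAs, deviations of partner arms went together (r = 0.998 for miR-126 and 0.995 for miR-142), as did those of miR-142-3p and miR-150-5p (r = 0.98). Those of miR-126-3p and miR-223-3p ran against each other (r = -0.88). All these deviations also carry the array scaling, and the unscaled intensity of miR-223-3p was nearly flat over the P5 arrays.

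**Figure D4:**
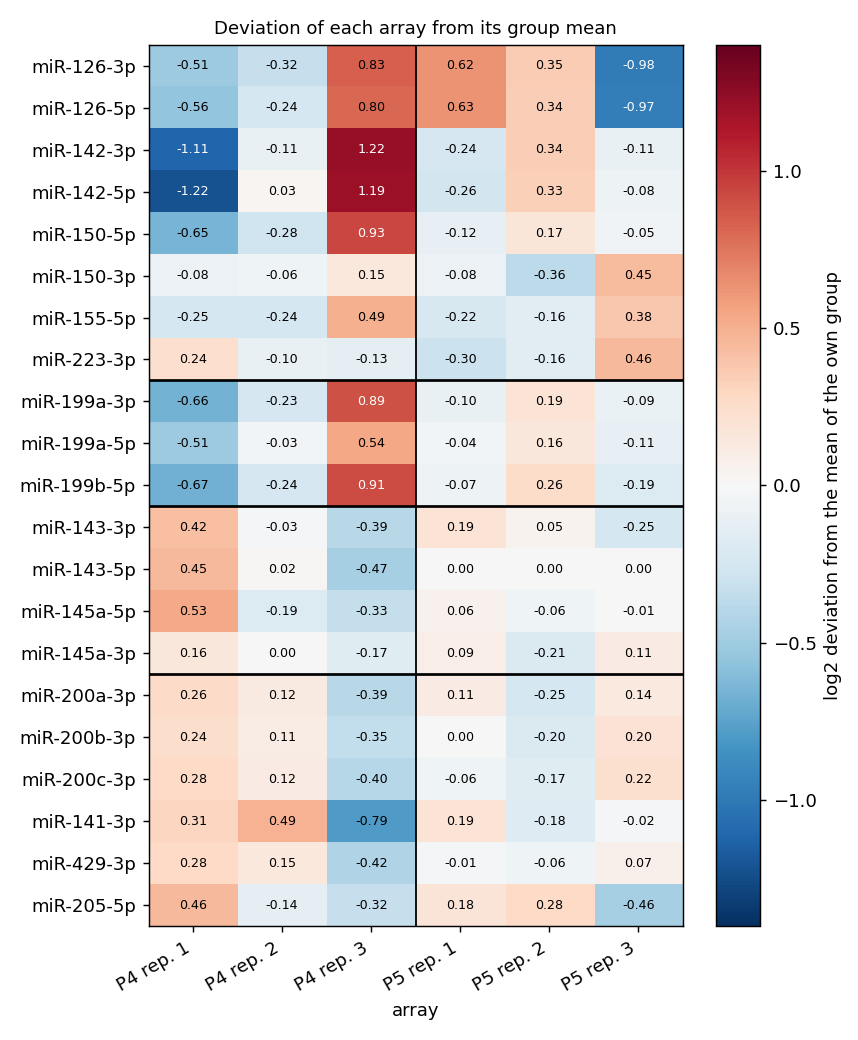
Deviation of each array (columns) from the mean of its own group, in log2 units (colour and printed value), for the 8 miRNAs and, below the lines, all tested miRNAs of the lists for fibroblasts, smooth muscle and pericytes, and epithelium. On P4 replicate 3 the arms of miR-126, the arms of miR-142, miR-150-5p and the miR-199 miRNAs are high, while the miR-143, miR-145 and epithelial miRNAs are low.

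Other miRNAs of these lineages were read from lists. Of 8 miRNAs known from endothelium but also made by other cells, 4 were higher in P4 and 0 lower. Over all tested miRNAs the shares were 13.8% and 14.1%. The median difference on this list was 0.92, beside 0.0013 over all tested miRNAs. miR-221-3p (2.27 ± 0.17), miR-222-3p (2.60 ± 0.26) and miR-10b-5p (1.19 ± 0.28, SE) passed, and so did miR-139-5p, which was detected on no P5 array. miR-10a-5p (0.65), miR-130a-3p (0.44), miR-296-5p (0.57) and miR-322-5p (-0.43) did not. Of 10 further leukocyte miRNAs only 4 were detected on any array, and the median of these 4 was 0.48. miR-146a-5p, a brake on Toll-like receptor signalling, was detected on 2 of the 3 P5 arrays and was higher in P4 (2.03 ± 0.20), and so was miR-342-3p (0.83 ± 0.18, SE), while miR-181a-5p (0.13) and miR-181b-5p (-0.29) did not pass. The partner strands miR-155-3p and miR-223-5p, and miR-511-5p, which is encoded in the macrophage gene Mrc1, were detected on no array. Of 5 erythroid miRNAs 4 were matched on the array and 0 could be tested. miR-451a was detected on 2 arrays of each group, with log2 scaled signals of -4.80, -4.72 and -4.19 in P4 and -5.12, -5.20 and -5.49 in P5, and both arms of miR-144 were detected on none.

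Lists for other cell types were read as well, and whether their miRNAs came from the cells named was not tested. All 3 tested fibroblast miRNAs were higher in P4, with a median difference of 3.60, and all 4 miRNAs of smooth muscle and pericytes, with a median of 4.60. Of these, miR-143-5p was detected on 0 P5 arrays, miR-199a-5p on 1 and miR-199b-5p on 2. They entered the test only through their detection on all 3 P4 arrays, so their calls add little. Both arms of miR-214, also on the fibroblast list, were detected on no array. Of the 6 epithelial miRNAs 5 were lower in P4 and miR-205-5p was higher (median -1.25). Beside these counts, 13.8% of all tested miRNAs were higher and 14.1% lower. On P4 replicate 3 miR-126-3p was 0.83 above its group mean, and the 3 tested fibroblast miRNAs deviated from theirs by 0.54 to 0.91. The 4 miRNAs of smooth muscle and pericytes deviated the other way, by -0.47 to -0.17. So did the 6 epithelial miRNAs, by -0.79 to -0.32. The part of these cell types in the differences of the endothelial and leukocyte miRNAs was not tested.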

How the data were processed

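Per the labels' protocols, RNA of the sorted cells was Cy3-labelled for Agilent's miRNA arrays. The deposited scanner files hold linear spot intensity after background subtraction. Per the file headers they were written by version 11.0.1.1 of Agilent Feature Extraction (11.0 per the submitters' processing notes). The authors' deposited table of log2 values equals log2 of the summed signal with 1 shift for each array and 1 constant for each row added (largest residual 9.39e-06). Where the row constants come from is unknown, so its centring is partly unsettled. Its columns had medians of 0.42, -0.36 and -0.06 (P4) and -0.56, -0.47 and 0.06 (P5).

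Control and outlier spots of the scanner files were left out, and intensities were averaged per probe and then per miRNA. Signals were scaled by the array's 75th percentile among the 293 miRNAs found on all arrays. They were floored at 0.0223, the 95th percentile of undetected miRNAs (median over arrays), and put on the log2 scale. Normexp used median spot and background signals with an offset of 50. No spot was saturated. P4 was compared with P5 over 370 miRNAs with limma 3.58.1 in R 4.3.3 (eBayes, 2-sided, Benjamini-Hochberg over all 370, threshold 0.05, no block), after a test on simulated data. Distances between 2 miRNAs had exact permutation tests. All 8 members were named, as were the 3 miRNAs most like miR-126-3p, miR-142-3p and miR-150-5p, and tested list members. The members, lists and settings were chosen with earlier results of these data known. The array design is of mouse build mm9, per the file headers, and sequence positions are RefSeq's on GRCm38.p6. The number of arrays limits the precision.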

Additional observations from a re-analysis of the deposited data

How the results depend on the processing

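Of 22 alternatives, 20 kept the calls of miR-126-3p, miR-126-5p and miR-150-5p, and the exceptions were no filter and a slide row block. The number of the 8 miRNAs called was 3; it was 6 with normexp, 0 with no filter and 0 with a slide row block, where 4 and 4 had an unadjusted limma p under 0.05, and 3 to 5 without each array in turn (5 without P4 replicate 1). Over all tested miRNAs 51 were higher and 52 lower. The calls were 47 with no filter, 52 with a slide row block and 85 to 121 without each array. The split was 47 higher and 77 lower when scaled over all miRNAs, 23 and 77 with no scaling, 55 and 25 with normexp, and 31 and 81 with the authors' processed values. Quantile normalization moved the median of all tested miRNAs to -0.13, scaling over all miRNAs to -0.17, the summed signal to -0.10 and normexp to 0.29. miR-155-5p turned to -0.18 with no scaling and to -0.15 with the authors' processed values. miR-150-3p turned to 0.45 with normexp, 0.18 with the brightest probe and 0.0592 with a slide row block, and ranged from -0.21 to 0.20 without each array; it kept its sign but moved furthest with the summed signal (-1.49) and the authors' processed values (-1.82). The cause was not tested. miR-223-3p, at an adjusted p of 0.0543, passed with normexp (0.58), the brightest probe (0.72), a lower floor, eBayes with trend and robust, and without P5 replicate 3. Whether same-numbered arrays share an animal or a sort is not stated in the labels. Their deviations correlated at -0.07, 0.37 and 0.09, and arrays did not all correlate best with their own number. With so few arrays per group these correlations cannot decide it. With the replicate block 111 miRNAs and 3 of the 8 were called. Weak signal limits miR-150-3p, miR-155-5p and, for miR-150-5p, the P5 values and P4 replicate 1.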
